A study of Mus musculus with 7 samples.

Results

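The genes described here carry glucose carbon through glycolysis, move lactate and pyruvate across membranes, and control the entry of pyruvate into the mitochondrion, with 3 genes of glycogen metabolism. They were chosen by name, not by a cut on their values, though with earlier results of these data known. All 35 were found among the 27583 genes measured. RNA came from the hippocampus of male wild-type (WT) C57BL/6 mice, given as C57BL6/J in the sample titles, and was sequenced in 7 libraries. The series was designed to set hippocampus after spinal cord injury against that of healthy controls, and its title names Per2. Every sample carries the same labels, which name no injury, treatment, age or time point, so the libraries stand in 1 group, as replicates 1 to 7, and no comparison between conditions was made. No label says whether each library came from a separate animal. The spread between libraries may thus be in part technical and cannot be read as that between animals.

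Glycolysis splits glucose into pyruvate in the cytosol and yields ATP without oxygen. Hexokinase traps glucose in the cell, phosphofructokinase is the main control point, and pyruvate kinase makes pyruvate. Lactate dehydrogenase converts pyruvate to lactate and back, and monocarboxylate transporters carry both across the plasma membrane. In brain, astrocytes and oligodendrocytes are thought to release lactate that neurons take up, which makes the isozymes and transporters of each cell type of interest. The mitochondrial pyruvate carrier and the pyruvate dehydrogenase complex feed pyruvate carbon to the citric acid cycle, and pyruvate dehydrogenase kinases switch that complex off.

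Levels are given as FPKM, fragments per kilobase of gene length scaled to the fragments of the library, so levels of different genes can be set side by side. Each library's values rested on about 37324000 to 38448000 fragments. The label of hippocampus fitted the markers of most libraries, but replicate 5 stood apart. The 10 genes of striatal projection neurons summed to 1562 FPKM in replicate 5 and to 46.2 to 57.4 FPKM in the other 6 libraries. Those of excitatory neurons summed to 1469 FPKM in replicate 5 and to 1730 to 2209 FPKM elsewhere, and those of dentate granule cells to 38.4 FPKM and 65.8 to 93.0 FPKM. Choroid plexus genes summed to 1104 FPKM in replicate 7, 843 FPKM in replicate 3, 248 FPKM in replicate 6 and 24.1 to 71.1 FPKM in the rest. Thalamus genes summed to 52.9, 50.4, 31.1 and 26.7 FPKM in replicates 7, 3, 5 and 4 and to 6.76 to 13.2 FPKM in the rest. The ratio of highest to lowest library of each member with an end of its range in replicate 5 is therefore also given without that library.

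Most of the pathway was abundant. Of the 35 members, 12 had a median of at least 100 FPKM, 13 lay between 10 and 100 FPKM, 8 between 1 and 10 FPKM and 2 below 1 FPKM. Tpi1, Eno1, Ldhb, Aldoc and Pgk1 had the highest median levels, and Slc16a3, Hk2 and Aldoa the lowest. The order of the levels was steady in its outline only. Of 34 pairs of neighbours in that order, 26 had overlapping ranges over the libraries. Within the libraries, 18 of these 26 pairs changed order in at least 1 library, and 8 kept it in 7 of 7: Tpi1 above Eno1, Pgk1 above Eno2, Eno2 above Gpi1, Mpc2 above Pdhb, Pygb above Hk1, Hk1 above Pfkl, Dlat above Slc2a3 and Aldoa above Hk2. The other 8 steps were clear of overlap on the FPKM scale: Pkm above Pgam1, Pgam1 above Pfkm, Ldha above Pfkp, Pdhx above Slc16a1, Pfkfb3 above Pfkfb2, Pfkfb2 above Gys1, Slc16a7 above Aldoa, and Hk2 above Slc16a3.

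**Figure D1:**
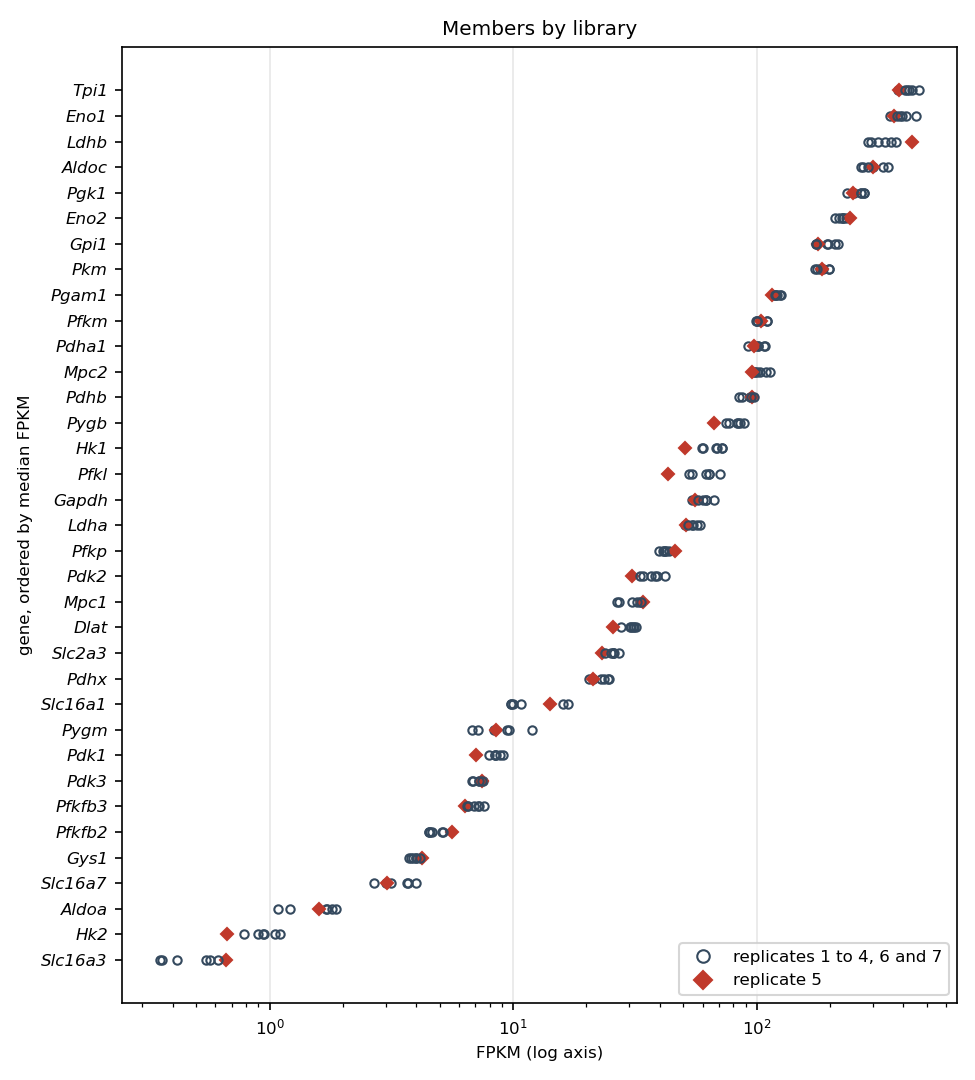
FPKM of each of the 35 members in each library, on a log axis, with genes ordered by median level. Open circles are replicates 1 to 4, 6 and 7 and filled diamonds are replicate 5; Tpi1 is at the top with a median of 413 FPKM and Slc16a3 at the bottom with 0.547 FPKM.

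Glucose enters neurons mainly through the transporter encoded by Slc2a3 (GLUT3). Its level ran from 23.1 FPKM in replicate 5 through a median of 25.7 FPKM to 27.2 FPKM in replicate 1, a 1.18-fold range. Hexokinase came almost wholly from Hk1, the form of brain that sits on the outer mitochondrial membrane. Hk1 (chr10:62268855-62379908, mm10, minus strand) had 67.8, 72.3, 69.0, 71.8, 50.7, 60.02 and 59.8 FPKM in replicates 1 to 7. Replicate 5 was the lowest, and the ratio of the highest to the lowest library was 1.43 with it and 1.21 without it. Hk2, the insulin-responsive form of muscle and fat, had 0.667 to 1.11 FPKM with a median of 0.937 FPKM, from 151 to 256 reads. The Hk2/Hk1 ratio within a library had a median of 0.0132 and ran from 0.0130 to 0.0156. Hk2 was lower than Hk1 in 7 of 7 libraries.

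Gpi1, whose enzyme turns glucose 6-phosphate into fructose 6-phosphate, had 174 to 216 FPKM with a median of 195 FPKM. The 3 phosphofructokinase genes encode subunits that mix in 1 tetramer. Pfkm, the muscle-type subunit, was the most abundant, with 99.4 to 110.4 FPKM and a median of 104 FPKM. It was among the steadiest members, with a ratio of highest to lowest library of 1.11. Pfkl, the liver-type subunit, had 63.6, 70.8, 62.1, 63.6, 43.4, 54.2 and 52.9 FPKM in replicates 1 to 7. Its ratio of highest to lowest library was 1.63, and 1.34 without replicate 5, which was again the lowest. Pfkp, the platelet-type subunit, had 39.9 to 46.1 FPKM with a median of 42.1 FPKM and was highest in replicate 5. Pfkl and Pfkp thus had their opposite ends in the same library. The Pfkl/Pfkm ratio was 0.416 in replicate 5 and 0.529 to 0.645 in the other libraries, and the Pfkp/Pfkm ratio was 0.441 in replicate 5 and 0.376 to 0.429 elsewhere.

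Fructose 2,6-bisphosphate, the strongest activator of phosphofructokinase, is made and removed by the bifunctional enzymes of the Pfkfb genes. Pfkfb3, the form with the highest kinase activity, had 6.34 to 7.61 FPKM with a median of 6.91 FPKM and was lowest in replicate 5. Pfkfb2, the heart-type form, had 4.52 to 5.61 FPKM with a median of 4.64 FPKM and was highest in replicate 5. The Pfkfb2/Pfkfb3 ratio was 0.884 in replicate 5, and replicates 6 and 7 followed with 0.796 and 0.785. In replicates 1 to 4 it was 0.610 to 0.654.

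Aldolase showed the widest gap between isozymes. Aldoc, the aldolase of astrocytes and of some neurons, had 268 to 345 FPKM with a median of 299 FPKM, from 29380 to 37004 reads. Aldoa, the aldolase of muscle that many other tissues including brain also make, had 1.80, 1.73, 1.87, 1.71, 1.60, 1.22 and 1.08 FPKM in replicates 1 to 7. These values rest on 76 to 132 reads, and counting error alone at the lowest is 11.5%. The Aldoc/Aldoa ratio was 151 to 248 over the libraries, with a median of 188. The closest stretch of 60 coding bases within an exon of the mm10 principal transcripts, in exon 5, shows how alike the pair is at most. It has 53 identical bases, and the 7 that differ are in capitals.
Aldoc, chr11:78325066-78325125, plus strand: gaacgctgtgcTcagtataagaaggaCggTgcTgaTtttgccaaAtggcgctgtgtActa
Aldoa, chr7:126796679-126796738, minus strand: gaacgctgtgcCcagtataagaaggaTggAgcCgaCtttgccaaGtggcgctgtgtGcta

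No run of 50 bases of the principal transcript of Aldoc was found in that of Aldoa, so reads of that length or longer without errors differ between them. Of the 50-base windows of the Aldoa transcript, 13.9% were found in transcripts of other genes, mostly Aldoart1, and of its 100-base windows 0%. Aldoart1 and Aldoart2, the retrogene copies of Aldoa, did not exceed 0.0388 and 0.174 FPKM. The low Aldoa level is therefore not matched by a high level in either copy. GENCODE M21 (the annotation of the same build) holds 2 records named Aldoa side by side on the minus strand of chromosome 7, and the coding one used here spans chr7:126795234-126800751. The principal transcript used here shared 0% of its 50-base windows with transcripts of the other record. Which of them the authors counted is not given in the sources used here, and how that bears on the level was not tested.

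From triose phosphate isomerase to pyruvate kinase the levels were high except for Gapdh, at rank 17 of the 35 members. Tpi1, which interconverts the 2 triose phosphates, had 381 to 464 FPKM with a median of 413 FPKM. Gapdh, the dehydrogenase that makes the first NADH of the pathway, had 54.5 to 66.8 FPKM with a median of 59.9 FPKM, from 3729 to 4545 reads. Pgk1, which makes the first ATP, had 234 to 275 FPKM with a median of 269 FPKM. Gapdh was thus below each of its neighbours in the pathway by this measure. Pgam1, the phosphoglycerate mutase of brain, varied least of all members, with 115 to 126 FPKM and a ratio of highest to lowest library of 1.09. Pkm, the pyruvate kinase gene whose splice forms make PKM1 and PKM2, had 174 to 198 FPKM with a median of 185 FPKM. It held more reads than any other member, 50670 to 58182 per library.

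Several of these levels are uncertain because the transcripts are copied elsewhere in the genome. Of the 50-base windows of the principal Gapdh transcript, 82.5% occurred in transcripts of other genes, 222 of them, most often Gm7336. The same share was 72.2% for Eno1, 68.0% for Pgk1, 44.2% for Mpc1 and 41.5% for Pgam1. With windows of 100 bases it was 78.0% for Gapdh, 59.0% for Eno1, 67.0% for Pgk1, 29.3% for Mpc1 and 39.7% for Pgam1. Of the 35 members, 10 shared over 20% of their 50-base windows and 6 over 20% of their 100-base windows, while 19 shared under 1% of the shorter ones and 12 shared none. How reads that fit several genes were counted is not given in the sources used here, so these members' levels may be split or lost, and their place in the order is uncertain. Of 10 named copies looked for, 3 were in the table, and only Eno1b, a copy of Eno1, reached 1 FPKM.

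**Figure D2:**
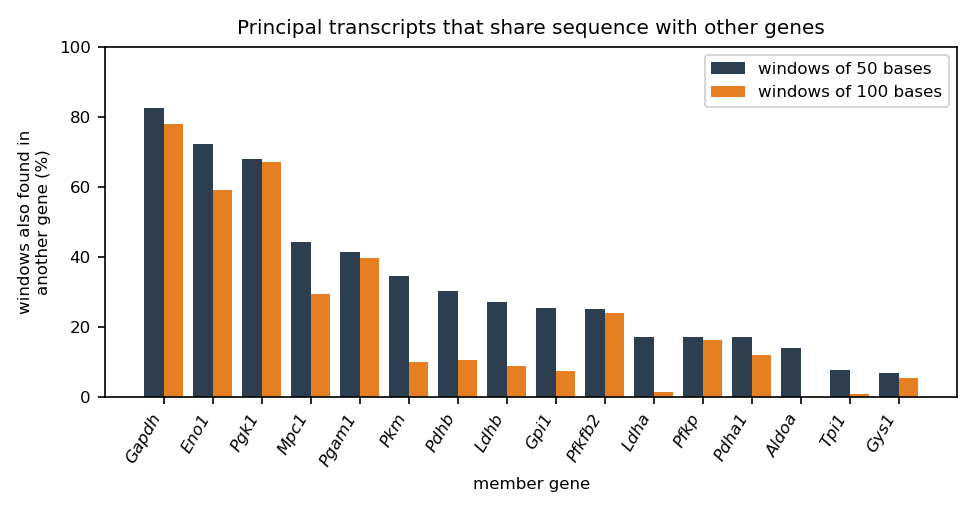
Share of the windows of 50 bases and of 100 bases of each principal transcript that also occur in a transcript of another gene, in percent, for the 16 members with at least 1% of the shorter windows shared. Gapdh leads with 82.5% and 78.0%, while Aldoa has 13.9% and 0%.

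The 2 enolase genes mark different cells in brain, Eno2 (neuron-specific enolase) being the neuronal form and Eno1 the form of glia and most other tissues. Eno2 had 209.95 to 241 FPKM with a median of 226 FPKM and was highest in replicate 5. Eno1 had 353 to 451 FPKM with a median of 386 FPKM. The Eno2/Eno1 ratio was 0.551, 0.569, 0.500, 0.655, 0.660, 0.556 and 0.562 in replicates 1 to 7, below 1 in each. Eno1b added 6.17 to 8.30 FPKM, and with it summed into Eno1 the median ratio was 0.553. The closest stretch of 60 coding bases in exon 7 has 55 identical bases, with the 5 that differ in capitals.
Eno2, chr6:124766262-124766321, minus strand: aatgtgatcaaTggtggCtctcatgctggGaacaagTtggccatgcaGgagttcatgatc
Eno1, chr4:150245121-150245180, plus strand: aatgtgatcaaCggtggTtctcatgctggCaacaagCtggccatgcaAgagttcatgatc

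Lactate dehydrogenase was dominated by Ldhb, the heart-type subunit, over Ldha, the muscle-type subunit that favours the step from pyruvate to lactate. Ldhb (chr6:142490249-142507957, mm10, minus strand) had 294, 335, 373, 286, 433, 315 and 354 FPKM in replicates 1 to 7. It was highest in replicate 5, and its ratio of highest to lowest library was 1.51 with that library and 1.30 without it. Ldha (chr7:46841475-46855627, mm10, plus strand) stayed within 50.5 to 58.3 FPKM, a 1.15-fold range, with a median of 54.3 FPKM. The Ldhb/Ldha ratio ran from 5.197 in replicate 1 through a median of 6.17 to 8.47 in replicate 5, and reached at most 6.83 in the other libraries. Ldhb was higher in 7 of 7 libraries, but the size of the ratio depends on the gene length used, since the median ratio of reads was only 1.51. Of the 50-base windows of the principal transcripts, 27.0% for Ldhb and 17.1% for Ldha occurred in transcripts of other genes. With windows of 100 bases it was 8.80% and 1.32%. Again no window of 50 bases was common to the pair. Their closest stretch, in exon 4, has 53 of 60 bases identical and 7 in capitals that differ.
Ldhb, chr6:142498560-142498619, minus strand: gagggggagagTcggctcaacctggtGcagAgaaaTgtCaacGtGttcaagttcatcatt
Ldha, chr7:46850237-46850296, plus strand: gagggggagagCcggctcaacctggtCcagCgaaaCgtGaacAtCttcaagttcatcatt

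Slc16a1 (MCT1), the monocarboxylate transporter of oligodendrocytes, endothelium and astrocytes, was the lactate transporter with the highest level. It lies at chr3:104638668-104658462 on the plus strand in mm10. Its level was 10.7, 9.95, 9.82, 9.78, 14.2, 16.9 and 16.1 FPKM in replicates 1 to 7, from 1645 to 2829 reads. Replicates 5, 6 and 7 lay above the other 4 libraries, with no overlap, and the ratio of highest to lowest library was 1.73 with or without replicate 5. Counting error at the lowest was 2.47%, well under that range. The same 3 libraries also had the highest summed level of 9 oligodendrocyte markers, at 1722, 1643 and 1862 FPKM, against 993.8 to 1258 FPKM in the rest. None of the 9 markers was at 0 in any library. All but Mobp were higher in each of replicates 5, 6 and 7 than in any other library. Mobp had 98.2 FPKM in replicate 2 and 95.1 FPKM in replicate 6. The 6 endothelial markers summed to 76.3, 76.5 and 79.2 FPKM in replicates 5, 6 and 7 and to 64.2 to 85.2 FPKM in the others. The 9 astrocyte markers summed to 590, 655 and 640 FPKM in those 3 libraries and to 593 to 640 FPKM in the others. Of these 2 lists, only Slco1a4, Aqp4 and Gja1 were each higher in all 3 libraries than in any other. Oligodendrocyte precursor markers summed to 22.3, 25.9 and 24.9 FPKM there and to 18.6 to 21.8 FPKM in the others. Microglia markers summed to 161, 142 and 132.51 FPKM there and to 120 to 132.43 FPKM in the others. The part of these cells in the Slc16a1 level was not tested, and in bulk tissue fewer cells of a type and less RNA per cell cannot be told apart.

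The other lactate transporters were scarce. Slc16a7 (MCT2), the high-affinity transporter of neurons, had 2.69 to 4.003 FPKM with a median of 3.16 FPKM and was highest in replicate 6. The Slc16a1/Slc16a7 ratio had a median of 3.65 and ran from 2.88 to 4.68. Slc16a3 (MCT4), the low-affinity exporter of glycolytic cells and of astrocytes, had 0.357 to 0.664 FPKM with a median of 0.547 FPKM, from 50 to 92 reads with a counting error of 14.1% at the lowest. The Slc16a3/Slc16a7 ratio was 0.112 to 0.219, so that the transporters kept 1 order in each library: Slc16a1, Slc16a7, Slc16a3. Bsg, the chaperone that carries MCT1 and MCT4 to the plasma membrane, was far more abundant than any of them, at 203 to 242 FPKM.

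Pyruvate crosses the inner mitochondrial membrane through a carrier of MPC1 and MPC2. Mpc1 had 26.8 to 34.2 FPKM with a median of 32.4 FPKM and was highest in replicate 5. Mpc2 had 95.7 to 113 FPKM with a median of 100.2 FPKM and was lowest in replicate 5. The Mpc2/Mpc1 ratio was 2.79 to 3.66 on FPKM, with a median of 3.39, but 1.27 to 1.66, with a median of 1.53, by principal transcript length.

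The pyruvate dehydrogenase complex turns pyruvate into acetyl-CoA, and its genes kept to narrow ranges. Pdha1 and Pdhb, the subunits of the E1 enzyme, had close levels: 92.3 to 108 FPKM with a median of 101 FPKM for Pdha1, and 84.3 to 97.3 FPKM with a median of 94.4 FPKM for Pdhb. Dlat, the E2 core, had 25.7 to 31.9 FPKM with a median of 30.4 FPKM, and Pdhx, which anchors the E3 enzyme, had 20.5 to 24.8 FPKM with a median of 23.0 FPKM. Dld, the E3 enzyme shared with other complexes, had 66.0 to 80.0 FPKM. The 4 member subunits summed to 248.9, 238, 247, 228, 240.3, 257 and 259.7 FPKM in replicates 1 to 7, a 1.14-fold range. Of the kinases that inactivate the complex, Pdk2, the form found in most tissues, was the highest on FPKM. It had 30.7 to 42.1 FPKM with a median of 36.9 FPKM. Pdk1, a hypoxia-induced form, had 7.03 to 9.12 FPKM and was lowest in replicate 5. Pdk3 had 6.77 to 7.49 FPKM, a ratio of 1.11, but its place among the kinases depended on the gene length used. Pdk4, the fasting-induced form, had 4.45 to 7.29 FPKM. Pdp1, the phosphatase that reactivates the complex, ranged more widely. It had 35.6, 41.9 and 34.7 FPKM in replicates 3, 5 and 7 and 19.2 to 23.7 FPKM in the others. Replicates 3, 5 and 7 also had the highest summed thalamus markers. That sum was close in replicates 4 and 5, at 26.7 and 31.1 FPKM, while Pdp1 was at 23.7 and 41.9 FPKM there. Replicate 5 was also the library with high striatal markers. The part of either tissue in the Pdp1 level was not tested.

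Glycogen, stored in brain mainly by astrocytes, is broken down by glycogen phosphorylase and built by glycogen synthase. Pygb, the brain form of the phosphorylase, had 66.6 to 88.8 FPKM with a median of 82.8 FPKM and was lowest in replicate 5. Pygm, the muscle form, had 6.76, 11.9, 9.61, 8.37, 8.55, 7.16 and 9.43 FPKM in replicates 1 to 7. It had the widest ratio of highest to lowest library of the 33 members with a median of at least 1 FPKM, 1.76. The Pygm/Pygb ratio was 0.0809 to 0.134. Gys1, the synthase of tissues other than liver, was at only 3.74 to 4.21 FPKM with a median of 3.996 FPKM. Ppp1r3c, which targets a phosphatase to glycogen, had 20.01 to 29.1 FPKM.

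Within a pair the order of isozymes was the same in each library, but for some pairs it rested on the gene length behind FPKM. The ratio of reads to FPKM gave the length behind each gene's values, and this was set beside the longest principal transcript of GENCODE M21. The length used was within 10% of the principal transcript for 18 of 35 members and over 2 times as long for 4. Pdk3 was divided by 11504 bases against 2115 bases, Pkm by 7687 against 2432 bases, Ldha by 5342 against 1766 bases and Pfkfb2 by 9788 against 4425 bases. On the scale of the principal transcript Pkm came first among the members, with a median level of 586, and Ldha was at rank 9, with 164. Divided by the principal transcript, the median Ldhb/Ldha ratio was 2.04 in place of 6.17, and the Pdk3/Pdk2 ratio was 0.919 in place of 0.196.

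Of 13 pairs, 12 stayed on the same side of 1 by principal transcript length and 9 by the merged length of all exons, which is longer where some transcript retains an intron. Pfkfb2/Pfkfb3 changed side under both, to a median of 1.04. Eno2/Eno1 reached 1.03 by merged exons, with 6 of 7 libraries above 1, Mpc2/Mpc1 was 0.465 and Pdk3/Pdk2 reached 1.07. Pdk3, below Pdk1 by median FPKM, had a median of 39.6 against 10.2 by principal transcript length and 32.7 against 6.81 by merged exons. The order of neuronal and glial enolase, of the carrier subunits and of Pfkfb2 and Pfkfb3 is thus not settled by these values. Nor is the order of Pdk3 beside Pdk1 and Pdk2. The low Hk2, Aldoa and Slc16a3 levels and the excess of Ldhb, Aldoc, Pygb and Pfkm within their pairs held on all 3 scales. These scales divide the same reads by different lengths, so they cannot show whether reads were assigned to the right gene. For Aldoa, with 2 records of that name, this was not tested.

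**Figure D3:**
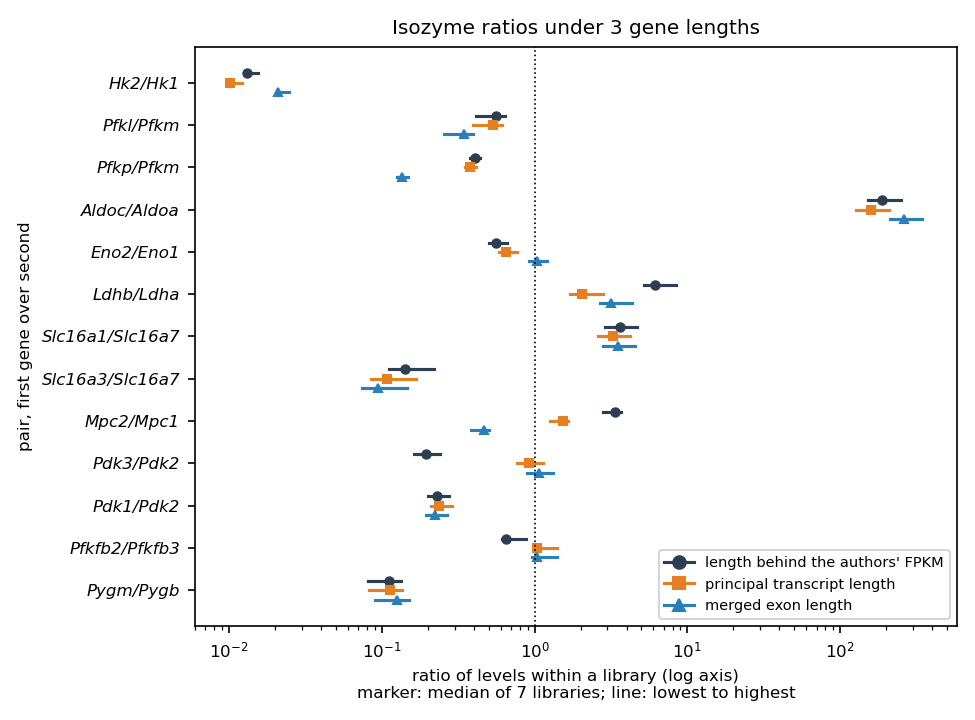
Ratio of 2 related genes within a library on a log axis, for 13 pairs, with the gene length behind the authors' FPKM, the principal transcript length and the merged exon length. Markers are medians of 7 libraries and lines run from the lowest to the highest; Aldoc/Aldoa stays above 100 on each scale, while Eno2/Eno1, Mpc2/Mpc1, Pdk3/Pdk2 and Pfkfb2/Pfkfb3 cross 1.

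Levels of the members differed little between libraries. Over the 33 members with a median of at least 1 FPKM, the median ratio of highest to lowest library was 1.23, beside 1.31 over all 12052 genes with such a median. Among those with a median of at least 10 FPKM, it was 1.22 for 25 members and 1.25 for 5343 genes, so the members lay closer to other genes of like level. The ratio was under 1.2 for 14 members (42.4%, beside 23.6% of all genes) and at least 1.5 for 5 members (15.2%, beside 24.5%). Those 5 were Pygm, Aldoa, Slc16a1, Pfkl and Ldhb. Without replicate 5 the medians were 1.18 for the members and 1.25 for all genes. Of the members lowest in replicate 5, the ratio was 1.18 with it and 1.15 without it for Slc2a3, 1.09 and 1.07 for Pgam1, 1.1997 and 1.18 for Pfkfb3, and 1.18 and 1.16 for Mpc2. It changed more for Hk2 (1.66 with it, 1.41 without it), Dlat (1.24 and 1.15), Pdk1 (1.30 and 1.14), Pdk2 (1.37 and 1.27) and Pygb (1.33 and 1.19). Among members highest in replicate 5 it was 1.16 with it and 1.099 without it for Pfkp, 1.15 and 1.103 for Eno2, 1.24 and 1.14 for Pfkfb2, 1.86 and 1.72 for Slc16a3, 1.28 and 1.25 for Mpc1, and 1.13 and 1.11 for Gys1. No member had a single library that stood apart by the gap rule for 7 values (gap to the nearest library over the whole range above 0.568), beside 9.72% of all genes. The highest gap ratio, 0.462, belonged to Pdk1, low in replicate 5.

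**Figure D4:**
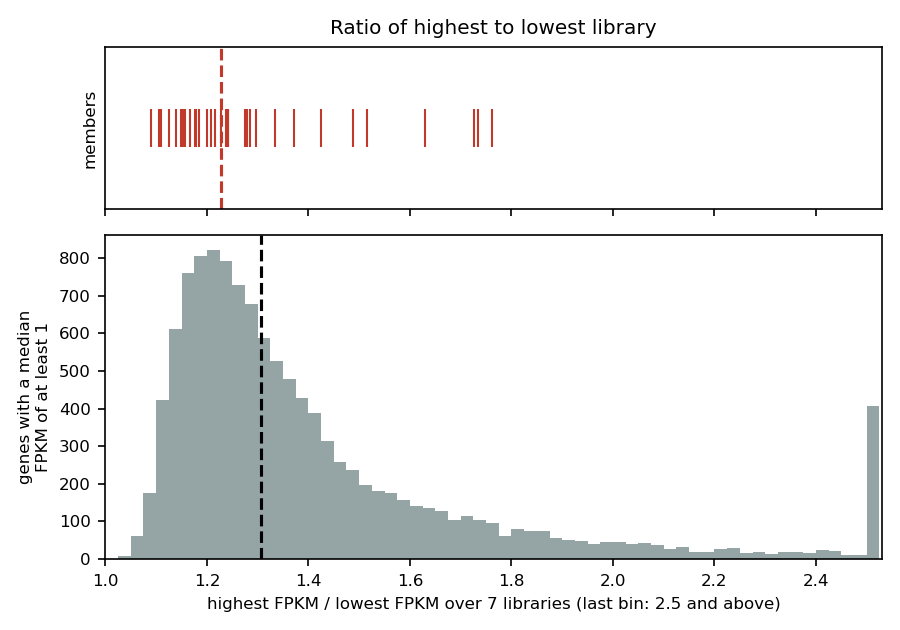
Ratio of the highest to the lowest library for the 33 members with a median of at least 1 FPKM (upper panel, 1 tick per gene) and for all 12052 such genes (lower panel, number of genes per bin). Dashed lines are the medians, 1.23 for the members and 1.31 for all genes.

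The 15 glycolytic enzyme genes from hexokinase to pyruvate kinase summed to 2435, 2540, 2632, 2345, 2319, 2348 and 2335 FPKM in replicates 1 to 7, between 0.656% and 0.754% of all FPKM. Replicate 3 was the highest under each scaling tried. It was the library with the highest Pfkm, Aldoa, Tpi1, Gapdh, Eno1 and Pkm, 6 of the 33 members beside 15.1% of all genes highest there. In replicate 2, 9 members were highest, beside 11.7% of all genes: Hk1, Gpi1, Pfkl, Aldoc, Pfkfb3, Dlat, Pdk2, Pygb and Pygm. None of the 33 was lowest in replicate 2, beside 16.8% of all genes.

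Replicate 4 held the lowest value of 11 members, beside 20.1% of all genes: Tpi1, Gapdh, Pgk1, Eno1, Ldha, Ldhb, Slc16a1, Pdha1, Pdhb, Pdhx and Gys1. That library also had the lowest total FPKM, and the count was 0 when each library was rescaled to the same total, beside 10.5% of all genes. Without replicate 5 it held the lowest value of 12 members, beside 23.0% of all genes. Replicate 5 held the lowest value of 10 members, beside 26.0% of all genes, and the highest value of 6, beside 21.1%. Lowest there were Slc2a3, Hk1, Pfkl, Pgam1, Pfkfb3, Mpc2, Dlat, Pdk1, Pdk2 and Pygb, and highest Pfkp, Eno2, Pfkfb2, Ldhb, Mpc1 and Gys1. After rescaling to the same total, 18 members were lowest in replicate 5, beside 32.9% of all genes, and 3 highest, beside 15.5%. On FPKM both shares of the members, 30.3% lowest and 18.2% highest, were near those of all genes. After the rescaling, both lay further from those of all genes, so this comparison depends on the scaling. The part of striatal tissue in the values of single members was not tested. Slc16a1, Slc16a7, Ldha, Mpc2, Pdha1 and Pdk1 were highest in replicate 6, 6 of 33 beside 14.4% of all genes, and 4 members were lowest there, beside 9.76%. Replicate 1 held the highest value of 2 members (9.08% of all genes) and the lowest of 3 (9.06%), and replicate 7 the highest of 2 (12.9%) and the lowest of 2 (7.64%). Aldoa and Aldoc were both lowest in replicate 7.

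**Figure D5:**
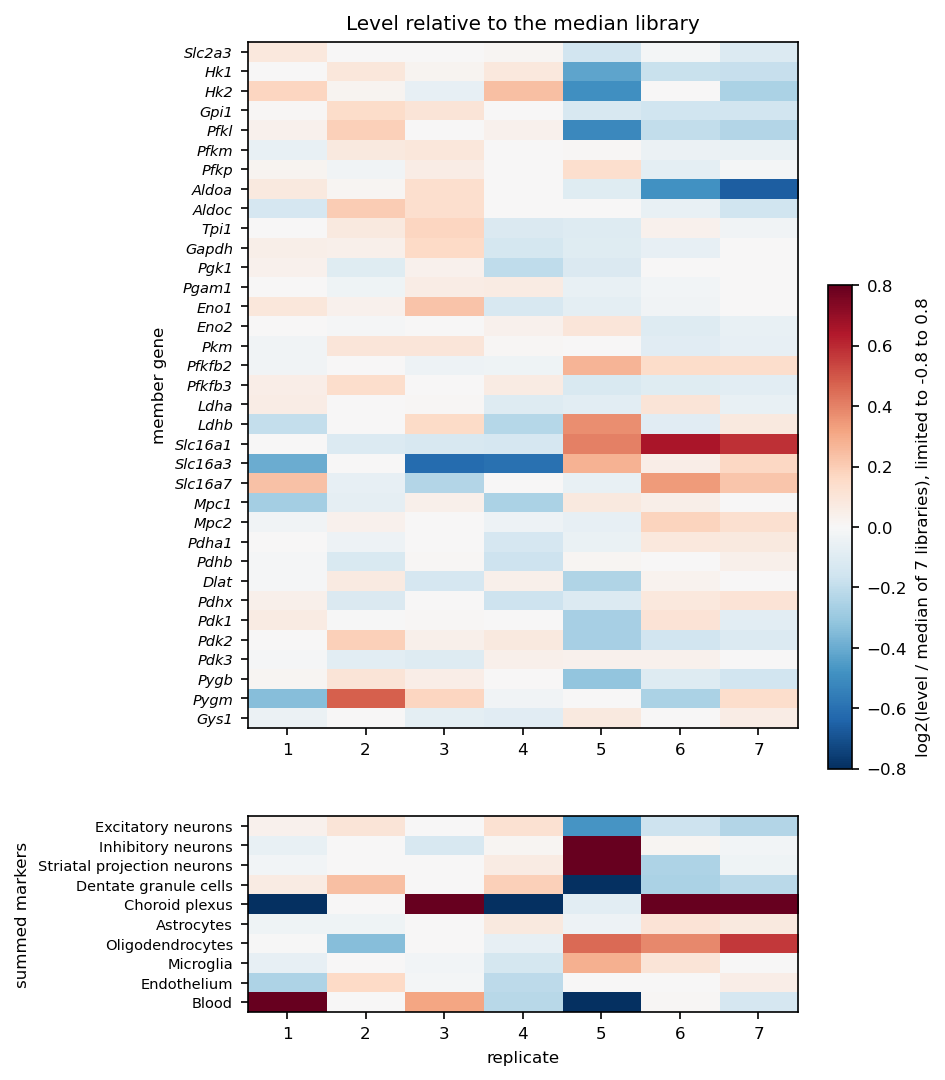
Level of each member (upper panel, FPKM) and of each summed marker list (lower panel) in each library relative to the median of the 7 libraries, on a log2 scale with the same limit on either side. Hk1, Pfkl and Pygb are low in replicate 5, where striatal markers are high, and Slc16a1 is high in replicates 5, 6 and 7, as are the oligodendrocyte markers.

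Of 58 other genes of these pathways, 57 were in the table and 42 had a median of at least 1 FPKM. Their median ratio of highest to lowest library was 1.36, beside 1.23 for the members. These sets were not matched for level, so the values do not show the members to be steadier than the other genes. Slc2a1 (GLUT1), the glucose transporter of the blood-brain barrier and of astrocytes, had 48.4, 69.4, 67.6, 62.8, 35.8, 41.3 and 48.9 FPKM in replicates 1 to 7. On FPKM it was thus above the neuronal Slc2a3 in each library, and it varied more, with a ratio of 1.94. Slc2a3 was divided by 5984 bases against a principal transcript of 3959 bases. The length behind Slc2a1 was not compared, so their order is not settled. Of the isozymes of other tissues, Pgam2 of muscle had 3.55 to 6.15 FPKM and Eno3 of muscle 1.198 to 1.77 FPKM. Bpgm, which makes the 2,3-bisphosphoglycerate of red cells, had 35.8 to 45.8 FPKM. Pgm2l1, the glucose 1,6-bisphosphate synthase of brain, had 38.7 FPKM in replicate 5 and 47.8 to 59.6 FPKM elsewhere. Of 15 genes listed for the hypoxia response, which includes several glycolytic genes, 13 had a median of at least 1 FPKM, with a median ratio of 1.40. Hif1a, the oxygen-regulated subunit of the hypoxia-inducible factor, stayed within 14.3 to 16.9 FPKM and Vegfa, a target of it, within 8.67 to 12.8 FPKM.

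The promoters were searched for the core letters of the hypoxia response element, ACGTG and GCGTG, and for CACGTG, which contains ACGTG, on both strands of the 300 bases from 250 before to 50 after each RefSeq start (GRCm38.p6). Promoters of 33 members were found, and Slc2a3 and Slc16a7 had none in the table used. ACGTG was present for 19 of the 33 genes (57.6%), beside 29.9% of 9556 genes with a median of at least 1 FPKM and 21.8% of all 27025 genes. GCGTG was present for 22 (66.7%), beside 56.9% and 35.2%, and CACGTG for 6 (18.2%), beside 12.01% and 8.09%. Genes with several starts have more windows to match, and a match says nothing of binding. Ldha is shown, as a known target of the hypoxia-inducible factor, by the 250 bases before 1 of its starts, with the matches of either core in capitals. CACGTG occurs there 2 times, and each time it reads as ACGTG on both strands.
Ldha, chr7:46845554-46845803, plus strand: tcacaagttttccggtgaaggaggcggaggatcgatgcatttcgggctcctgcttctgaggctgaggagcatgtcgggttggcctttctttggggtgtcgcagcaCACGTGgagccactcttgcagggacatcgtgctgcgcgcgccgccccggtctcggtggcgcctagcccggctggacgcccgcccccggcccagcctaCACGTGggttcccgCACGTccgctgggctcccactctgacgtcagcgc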

How the data were processed

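Per the labels, RNA of 7 hippocampus samples was extracted with an RNeasy kit and sequenced from SMARTer mRNA libraries. What the authors deposited is a single FPKM table of 27583 gene names. The submitters' processing notes name the build mm10; the aligner, the counter and the annotation are not given in any source used here. FPKM depends on the gene length chosen and on the treatment of reads that fit several genes, and a few abundant genes lower all others.

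FPKM values were whole multiples of 1 read per gene, which gave whole reads for 27583 of 27583 genes within 0.005 reads, about 37324000 to 38448000 fragments per library, and whole gene lengths within 0.02 bases for 99.6% of 14897 genes with over 20 reads. On simulated data for 27583 genes the step returned exact reads for 99.1% of genes with at least 20 reads. Counting error is that of reads only. With whole reads recoverable, no count test was run, because the labels give 1 group.

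Columns were matched to samples by library name, and replicate numbers only name samples. Results are medians, ranges, counts and ratios within a library, with no test. Lengths, principal (APPRIS) transcripts, coordinates and coding stretches came from GENCODE M21, promoters from RefSeq on GRCm38.p6. Shared windows were exact matches of 50 or 100 bases between principal transcripts and transcripts of other genes. The protein comparison planned for the isozymes was not run. All 35 members were named by rule; other pathway genes were named at a median of at least 1 FPKM. The members and lists were chosen with earlier results of these data known. Alternatives were pseudocounts of 1 and 0.1, filters at 0.1, 5 or none, 3 other scalings and each library left out; the 2 other lengths and the count for replicate 4 were chosen later, after seeing the data. The software was Python 3.11.15 with numpy 2.4.6, pandas 2.3.3 and matplotlib 3.10.9.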

Additional observations from a re-analysis of the deposited data

Results flagged for a closer look

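The gap from the farthest library to its nearest neighbour, divided by the whole range, was set against the 95% limit for 7 values, 0.568. Of 121 values examined 7 passed, about 1 in 20 would by chance, and 9.72% of all genes did. None was a member. All but one were set apart by replicate 5. The summed striatal markers had a gap ratio of 0.993, with 1562 FPKM in replicate 5 and 46.2 to 57.4 FPKM elsewhere. The summed inhibitory neuron markers had 0.884, with 179 FPKM and 93.8 to 104 FPKM. Slc16a6, a monocarboxylate transporter family gene, had 0.787, with 2.37 FPKM in replicate 5 and 0.999 to 1.29 FPKM elsewhere. Gbe1, the glycogen branching enzyme, had 0.616, with 5.75 FPKM and 3.45 to 4.33 FPKM. Adpgk, an ADP-dependent glucokinase, had 0.616 at the low end, with 4.72 FPKM in replicate 5 and 5.58 to 6.11 FPKM elsewhere. Tigar, a fructose bisphosphatase, had 0.610 at the low end, with 4.43 FPKM and 5.14 to 5.59 FPKM. Ndrg1, a hypoxia-response gene also made by oligodendrocytes, had 0.669, with 36.1 FPKM in replicate 2 and 47.5 to 53.1 FPKM elsewhere. Replicate 2 also had the lowest summed oligodendrocyte markers, 993.8 FPKM beside 1205 to 1862 FPKM, and the lowest ependyma and oligodendrocyte precursor sums. Replicate 7 was highest for both Ndrg1 and the oligodendrocyte sum. Ndrg1 was at 47.9 and 47.8 FPKM in replicates 5 and 6, with oligodendrocyte sums of 1722 and 1643 FPKM. It was at 47.8 and 47.5 FPKM in replicates 1 and 4, with sums of 1257 and 1205 FPKM. The part of these cells in the Ndrg1 value was not tested.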

How the results depend on the processing

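No paired analysis was possible because the labels give 1 group. The median ratio of highest to lowest library over the members stayed at 1.19 to 1.24 under 8 other pseudocounts, filters and scalings and at 1.18 to 1.23 with each library left out. No member stood apart by the gap rule under 3 other scales, beside 8.90% to 10.1% of all genes. Rescaled to a total of 1000000, 3 members were highest in replicate 5 (6 on FPKM), beside 15.5% of all genes (21.1% on FPKM). Lowest in replicate 5 were 18 members (10 on FPKM), beside 32.9% of all genes (26.0% on FPKM). Lowest in replicate 4 were 0 members (11 on FPKM), beside 10.5% of all genes (20.1% on FPKM). Rescaled without mitochondrially encoded genes, 5 members were lowest in replicate 4, beside 14.0% of all genes. Of 144 alternative values of the isozyme ratios 5 changed side, all under another length. By principal transcript length Hk2/Hk1 was 0.0102, Pfkp/Pfkm 0.379, Eno2/Eno1 0.654, Ldhb/Ldha 2.04, Mpc2/Mpc1 1.53, Pdk3/Pdk2 0.919 and Pfkfb2/Pfkfb3 1.04. By merged exon length Hk2/Hk1 was 0.0209, Pfkl/Pfkm 0.346, Pfkp/Pfkm 0.136, Aldoc/Aldoa 261, Eno2/Eno1 1.03, Ldhb/Ldha 3.18, Mpc2/Mpc1 0.465, Pdk3/Pdk2 1.07 and Pfkfb2/Pfkfb3 1.04. With a pseudocount of 1 Hk2/Hk1 was 0.0294 and Aldoc/Aldoa 116, and with 0.1 Hk2/Hk1 was 0.0151. The 91 ratios with a library left out stayed on their side of 1. They could not do otherwise, since each of the 13 pairs had the same order in every library. Depth limits Hk2, Aldoa and Slc16a3 most, with as few as 151, 76 and 50 reads.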
